A study of Mus musculus with 29 samples.

Results

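The RNA of 10 NF-kB genes was followed in hematopoietic stem cells (HSCs) of young and old wild-type (WT) and Gadd45b knockout (KO) mice. The genes were chosen by symbol, as 10 of the 55376 gene symbols counted in each library. They comprise 5 subunits (Nfkb1, Nfkb2, Rel, Rela and Relb), 3 inhibitors (Nfkbia, Nfkbib and Nfkbie), and the pair Tnfaip3 and Bcl3. RNA-seq counts of 19 libraries were analysed: 4 from young WT (YWT), 4 from old WT (OWT), 4 from young KO (YKO) and 7 from old KO (OKO). The study's methods name more OWT and YKO samples, which were not analysed here. The labels give age only as young or old, list every mouse as female and give the genotype of the KO mice as Gadd45KO. The study's methods name both sexes, and its sequencing summary lists 8 of these libraries as female and 7 as male, and no sex was used here for the 4 OWT libraries. The methods describe a knockout line obtained from another laboratory and then bred and aged in house. HSCs were sorted as Lin-, c-Kit+, Sca1+, CD34-, Flk2- and CD150+ cells. How many mice went into a library was not stated, so p-values measure the spread between these libraries, part of which may be technical.

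NF-kB factors are dimers of the 5 subunits that are held in the cytoplasm by inhibitor proteins of the IkB family. Signals from receptors of tumour necrosis factor, interleukin-1 or microbial products activate the IkB kinase, which marks the inhibitors for destruction and lets the dimers enter the nucleus. Among the genes they then switch on are several of their own inhibitors and Gadd45b, and in HSCs the pathway is known for its part in the response to inflammation. Activity is set largely by protein location and turnover, which RNA levels do not measure.

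Several of these genes hold letters of the NF-kB motif close to their own transcript starts. RefSeq promoter sequences (GRCm38.p6) were at hand for 8 of the 10 genes, all except Nfkb1 and Relb. The 250 bases before each RefSeq transcript start were searched on both strands for the kappa-B consensus, the site that NF-kB dimers bind, with overlapping matches counted separately. By the GENCODE positions given further on, the windows of Nfkb2 and Nfkbib lie inside the gene and the printed one of Tnfaip3 almost wholly so, those of Rel, Rela and Bcl3 overlap it in part, and those of Nfkbia and Nfkbie lie outside it. The windows of 5 of the 8 genes held a match (Nfkb2, Rel, Nfkbia, Nfkbie and Tnfaip3), whereas 4.5% of all 27025 genes in the table, and 3.9% of its 32851 promoters of the same length, held one. A match is a description of the letters and not a bound site. The first of the 3 Nfkb2 promoters held 3 matches, of which 2 overlap. Rela, Nfkbib and Bcl3 held none, which says only that these letters are absent from this window. The promoters of 3 genes with a match and of Nfkbib, whose level is discussed at length here, are given from 5′ to 3′ with the matches in capitals.

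Nfkb2 chr19:46304487-46304736 (plus strand): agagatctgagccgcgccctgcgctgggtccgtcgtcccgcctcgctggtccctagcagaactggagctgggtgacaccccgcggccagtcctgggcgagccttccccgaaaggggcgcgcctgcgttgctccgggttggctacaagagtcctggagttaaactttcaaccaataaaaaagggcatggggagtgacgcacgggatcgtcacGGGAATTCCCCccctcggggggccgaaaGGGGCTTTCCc

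Nfkbia chr12:55492648-55492897 (minus strand): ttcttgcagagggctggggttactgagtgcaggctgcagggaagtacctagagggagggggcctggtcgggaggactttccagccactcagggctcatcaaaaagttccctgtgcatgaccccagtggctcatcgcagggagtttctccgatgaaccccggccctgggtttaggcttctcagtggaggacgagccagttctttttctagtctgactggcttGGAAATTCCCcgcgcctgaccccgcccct

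Tnfaip3 chr10:19015411-19015660 (minus strand): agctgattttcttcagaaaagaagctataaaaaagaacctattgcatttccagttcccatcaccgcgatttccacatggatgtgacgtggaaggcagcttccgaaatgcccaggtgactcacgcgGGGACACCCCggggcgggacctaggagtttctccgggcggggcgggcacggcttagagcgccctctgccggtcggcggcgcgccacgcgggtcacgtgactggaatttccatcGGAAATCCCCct

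Nfkbib chr7:28766645-28766894 (minus strand): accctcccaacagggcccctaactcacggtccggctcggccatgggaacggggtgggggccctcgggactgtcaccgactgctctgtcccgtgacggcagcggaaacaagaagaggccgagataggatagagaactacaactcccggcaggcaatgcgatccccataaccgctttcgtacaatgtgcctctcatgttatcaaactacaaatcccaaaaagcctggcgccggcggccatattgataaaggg

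Libraries held between 22197555 and 77970627 counts (median 57562473). Counts are given as TMM-normalized CPM, the counts of a gene scaled to a common library size. The TMM factor of a library divides the CPM of all its genes. It was 1.83, 1.24 and 1.41 in OKO1, OKO2 and OKO3, and from 0.692 (YWT2) to 1.22 (YWT4) elsewhere. The titles of 8 libraries, all 4 OWT and OKO4 to OKO7, start with IB15, and the study's sequencing summary lists these as a batch of their own. The other 11 do not, so age in WT and this batch cannot be told apart. OKO1 stood apart from all others, with a score of 205 on the first principal component of 12324 genes, followed by OKO3 at 118 and OKO2 at 60.8. OKO1 also had the most genes over 1 CPM (27972, against 15296 to 20579 elsewhere). Summed plasma cell markers reached 30200 CPM in YWT2, 15300 in YKO2 and 10200 in YKO1, and lay between 212 and 5510 in the other libraries. These 3 libraries are all listed as female in the sequencing summary. All 10 HSC markers were detected, at a summed level of 2320 to 4860 CPM. Gadd45b itself was at 9.12, 17.5, 8.17 and 7.34 CPM in the 4 YWT libraries and at 12.7, 14.3, 5.98 and 5.14 CPM in those labelled YKO. It was at 10.1 to 15.5 CPM in OWT and at 2.84 to 6.94 CPM in OKO. The young groups overlap and the old groups do not. Counts cover the whole gene, so reads from a part left by the deletion cannot be told apart from intact transcript, and every direction between genotypes here rests on the labels.

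Each gene was expressed in each library, from 118 counts for the scarcest value (Rel) to 23281 for the richest (Nfkbia). Compared per kilobase of exon, Nfkbia had the highest mean level over all libraries, at 133 CPM per kb. Rela followed at 59.2 CPM per kb, then Bcl3 at 19.7, Nfkbib at 17.0, Nfkb1 at 13.6, Nfkb2 at 12.8 and Nfkbie at 11.9. Relb at 5.33, Tnfaip3 at 4.43 and Rel at 1.52 CPM per kb were the lowest. Between groups the levels moved little. The highest group mean was 1.18 times the lowest for Nfkb1 and 1.99 times for Bcl3, with the other 8 genes between these.

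**Figure D1:**
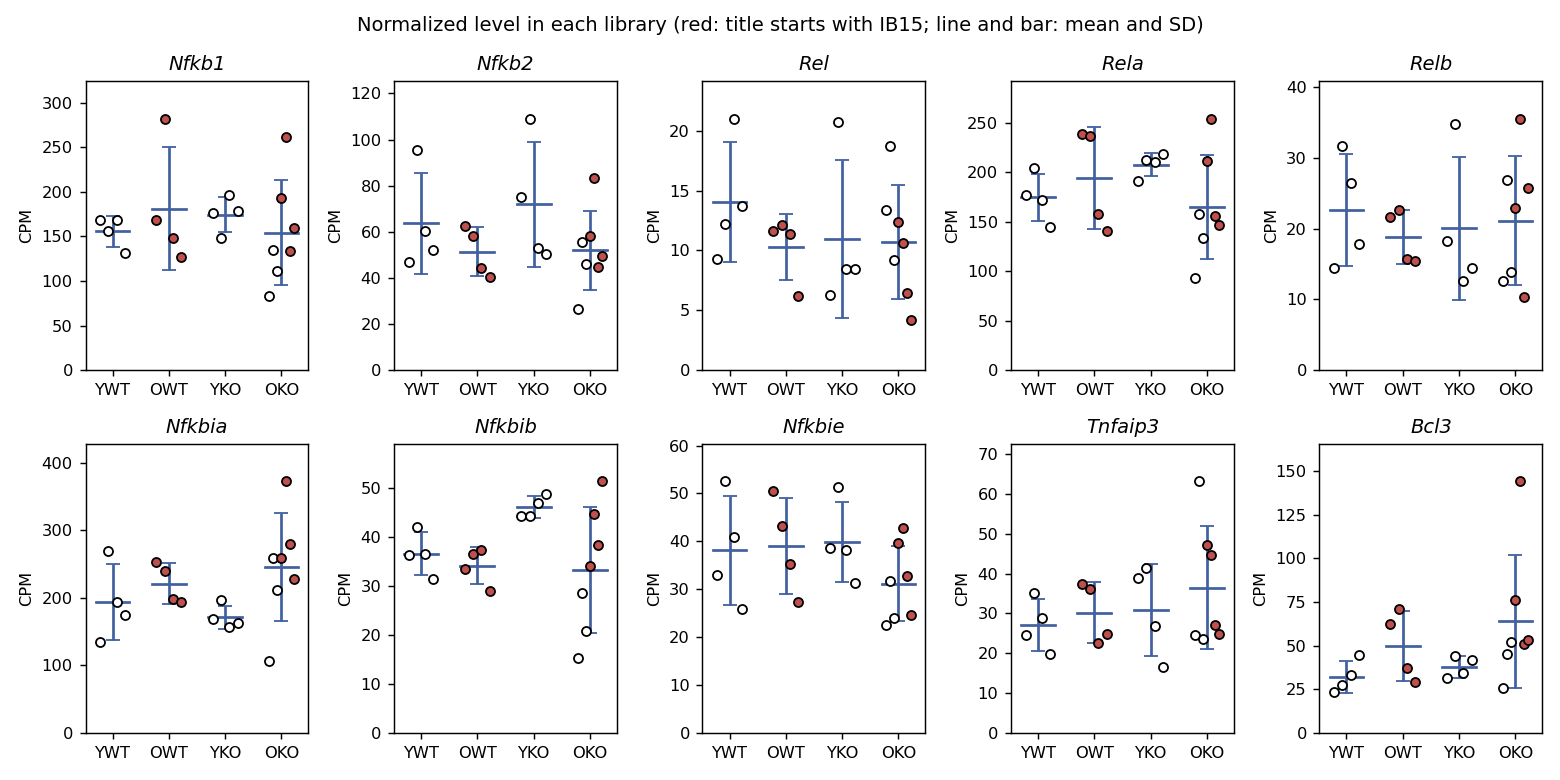
CPM of each gene (y axis, from 0) in each of 19 libraries, by group (x axis). Points are libraries, red where the title starts with IB15, and the line and bar are the group mean and SD. On this TMM-normalized scale the 4 YKO values of Nfkbib lie above the 4 YWT values, and OKO5 reaches 144 CPM for Bcl3.

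Of the subunits, Rela (chr19:5637483-5648130, mm10) encodes p65, the main transactivating partner of the classical dimer. Rela was at 177, 204, 172 and 145 CPM in YWT and at 239, 237, 158 and 141 CPM in OWT. In YKO it was at 191, 212, 210 and 218 CPM, and in OKO from 92.8 to 254 CPM with a median of 156. The YKO libraries were the most even of the 4 groups, and all groups overlapped.

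Nfkb1 (chr3:135584655-135691547) encodes p105, which is processed to p50, the usual partner of p65. It was at 168, 156, 168 and 131 CPM in YWT, at 168, 282, 148 and 127 CPM in OWT, and at 176, 148, 196 and 178 CPM in YKO. The OKO values ran from 83.4 to 262 CPM with a median of 135. OWT2 and OKO5 were the 2 highest libraries and OKO1 the lowest.

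Nfkb2 and Relb form the dimer of the alternative pathway, in which p100 is processed to p52. Nfkb2 (chr19:46304320-46312385) was at 46.9, 95.6, 60.3 and 51.9 CPM in YWT and at 62.4, 58.2, 44.3 and 40.6 CPM in OWT. It was at 75.2, 109, 52.9 and 50.5 CPM in YKO and from 26.5 to 83.2 CPM in OKO, with a median of 49.7. The highest values were those of YKO2 and YWT2. Relb (chr7:19606217-19629438) was at 14.4, 31.6, 26.5 and 17.8 CPM in YWT, and at 21.7, 22.6, 15.7 and 15.4 CPM in OWT. It was at 18.3, 34.7, 12.6 and 14.5 CPM in YKO and from 10.4 to 35.5 CPM in OKO, with a median of 22.9. YWT2 and YKO2 were again the highest libraries of their groups, and they were also the 2 libraries with most plasma cell markers. YWT2 had the lowest TMM factor (0.692), which raises its CPM. By counts over library totals alone, YWT3 would exceed YWT2 for Relb, and OKO5 would exceed it for Nfkb2. The part of plasma cells in these levels was not tested. Exons of Nfkb2 overlap those of Psd on the opposite strand (129 to 1340 counts), and whether the counting used strand is not given in the sources used here, so its counts carry that uncertainty.

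**Figure D2:**
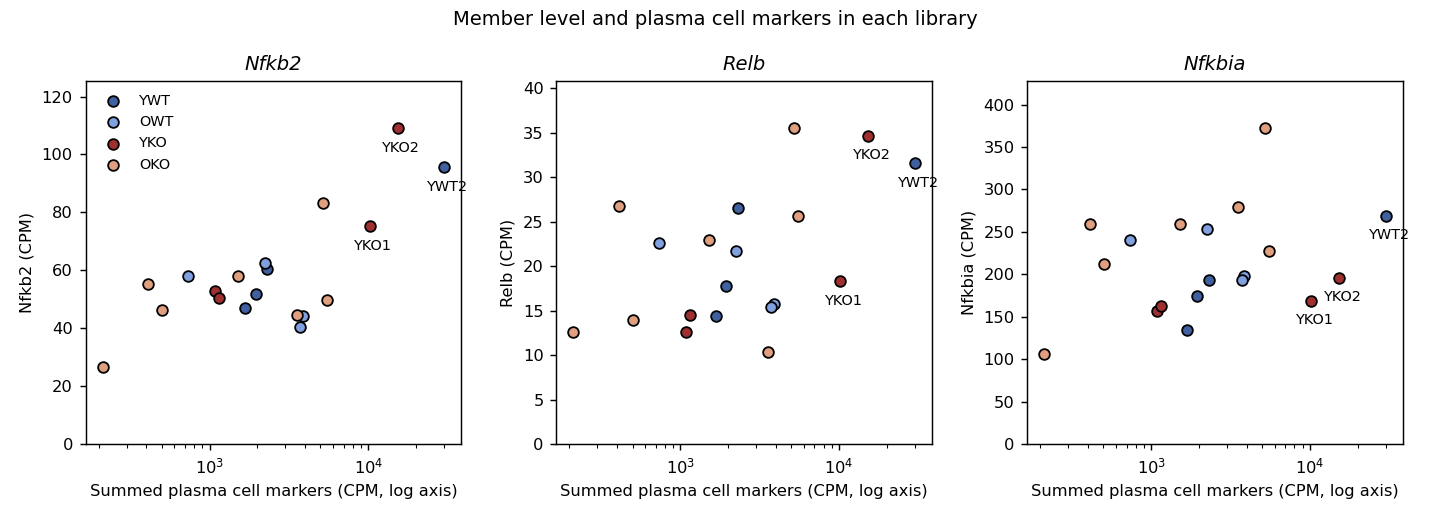
CPM of Nfkb2, Relb and Nfkbia (y axes) against the summed CPM of 8 plasma cell markers (x axis, log scale) in 19 libraries coloured by group. YKO2 and YWT2, at the right, have the 2 highest Nfkb2 values, 109 and 95.6 TMM-normalized CPM, while Nfkbia is highest in OKO5.

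Rel (chr11:23736847-23770970), which encodes the lymphoid subunit c-Rel, was the scarcest of the 10. It was at 9.26, 12.2, 21.0 and 13.7 CPM in YWT, at 11.6, 12.1, 11.4 and 6.22 CPM in OWT, and at 6.28, 20.7, 8.47 and 8.42 CPM in YKO. The OKO values ran from 4.16 to 18.7 CPM with a median of 10.6. A single library, YKO2, lay far above the others of its group.

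Of the inhibitors, Nfkbia (chr12:55489410-55492647) encodes IkBa, the fast feedback inhibitor. It was at 135, 269, 193 and 175 CPM in YWT and at 253, 240, 198 and 193 CPM in OWT. In YKO it was at 169, 196, 157 and 163 CPM, and in OKO from 106 to 372 CPM with a median of 259. Of the 7 OKO libraries, OKO1 was below all YKO values and the other 6 above them. This order rests on the TMM factors, of which that of OKO1 was the highest (1.83). By counts over library totals alone, OKO1 would lie above all YKO values and OKO7 below that of YKO2.

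Nfkbib (chr7:28758251-28767512) encodes IkBb, an inhibitor with slower turnover. It was at 36.3, 42.0, 36.6 and 31.3 CPM in YWT, at 33.4, 36.6, 37.3 and 29.0 CPM in OWT, and at 44.3, 44.3, 46.9 and 48.8 CPM in YKO. OKO1, OKO2 and OKO3 had 15.2, 28.6 and 20.7 CPM, whereas OKO4 to OKO7 had 34.0, 44.7, 38.4 and 51.3 CPM. The first 3 thus lay below all libraries of the other groups in TMM-normalized CPM, and they had the highest TMM factors (1.83, 1.24 and 1.41). By counts over library totals alone, OKO2 and OKO3 would lie above OWT4. Exons of Nfkbib overlap those of Sirt2 (1595 to 6279 counts) and Ccer2 (6 to 79 counts) on the opposite strand, with the same uncertainty.

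Nfkbie (chr17:45555703-45563169), which encodes IkBe, was at 33.0, 52.5, 41.0 and 25.9 CPM in YWT and at 50.6, 43.2, 35.3 and 27.3 CPM in OWT. It was at 38.7, 51.4, 38.1 and 31.3 CPM in YKO and from 22.6 to 42.7 CPM in OKO, with a median of 31.8. The 4 groups overlapped.

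Tnfaip3 (chr10:19000910-19015657) encodes A20, a ubiquitin-editing enzyme that dampens signalling upstream of the IkB kinase. It was at 24.6, 35.2, 28.8 and 19.8 CPM in YWT, at 37.3, 36.1, 22.6 and 24.8 CPM in OWT, and at 38.8, 41.5, 26.8 and 16.5 CPM in YKO. The OKO values ran from 23.6 to 63.1 CPM with a median of 27.2. Bcl3 (chr7:19808462-19822770) encodes a nuclear IkB-like protein that works with p50 and p52 dimers. It was at 23.5, 27.4, 33.0 and 44.5 CPM in YWT, at 62.2, 71.1, 37.0 and 29.3 CPM in OWT, and at 31.2, 44.3, 34.3 and 41.6 CPM in YKO. The OKO values ran from 26.0 to 144 CPM with a median of 51.8, and 6 of the 7 OKO libraries were above all YKO values. This order rests on the TMM factors. By counts over library totals alone, OKO1 would lie above all YKO values and OKO7 just below that of YKO2. Exons of Bcl3 overlap Gm16175 on the opposite strand (66 to 848 counts), with the uncertainty given for Nfkb2.

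The first comparison asked what age did in WT HSCs. In OWT vs YWT the largest difference was that of Bcl3, at a log2 fold change of 0.64 ± 0.38 (SE, 95% interval -0.15 to 1.42). Rel (-0.44 ± 0.40) and Nfkb2 (-0.31 ± 0.30) were lower in OWT on average, and Relb was at -0.26 ± 0.37. Nfkb1 (0.22 ± 0.29), Nfkbia (0.20 ± 0.28), Tnfaip3 (0.16 ± 0.33), Rela (0.15 ± 0.26), Nfkbie (0.04 ± 0.26) and Nfkbib (-0.10 ± 0.27) lay nearer to 0. None of the 10 passed the test, a Benjamini-Hochberg adjusted p under 0.05 in edgeR's quasi-likelihood test together with a fold change over 1.5, and each adjusted p was 1. Of all 33690 genes tested, 0.00297% passed. At an unadjusted p under 0.05, 0 of the 10 and 4.38% of all genes passed, and with DESeq2 0 of the 10 and 0.678% of all genes. The groups overlapped for all 10 genes, while they were apart for 4.13% of all genes. With the title prefix as a covariate, which here rests on the OKO libraries alone, Bcl3 came to -0.34 and Nfkb1 to -0.55. Granulocyte and monocyte markers summed to 532 to 889 CPM in OWT and 111 to 272 CPM in YWT (9 of 10 with a fold change above 0, median 1.74). All 10 B cell markers had a fold change below 0 (median -2.38, 7 at an unadjusted p under 0.05), as had all 8 erythroid markers (median -0.98). All 10 HSC markers lay above 0 (median 0.48, 2 at an unadjusted p under 0.05). No marker of these lists passed the test, and the part of such cells in the differences of the 10 genes was not tested.

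The second asked what the knockout did in young HSCs, where no library has the prefix. In YKO vs YWT, Nfkbib was higher in each YKO library than in each YWT library in TMM-normalized CPM. It was at a log2 fold change of 0.33 ± 0.27 (95% interval -0.23 to 0.90) and an adjusted p of 1 in edgeR's test. By counts over library totals alone, YKO1 (TMM factor 0.847) would lie below YWT4 (TMM factor 1.22). On the TMM scale the groups were apart for 1 of the 10 genes and for 5.12% of all genes. Rel was at -0.35 ± 0.41, Rela at 0.25 ± 0.26, Bcl3 at 0.24 ± 0.38 and Tnfaip3 at 0.19 ± 0.33. Nfkb1 (0.17 ± 0.29), Nfkb2 (0.17 ± 0.30), Nfkbia (-0.17 ± 0.28), Relb (-0.17 ± 0.37) and Nfkbie (0.07 ± 0.26) differed less. Of the 10 genes 0 passed, against 0.0267% of all genes. At an unadjusted p under 0.05 the figures were 0 and 4.59%, and with DESeq2 0 and 0.604%. With the listed sex as a covariate, in a fit without OWT, 0 of the 10 and 0.0152% of all genes passed. Erythroid markers summed to 1480 to 4190 CPM in YKO and 562 to 2000 CPM in YWT, and 1 of the 8, Alas2, was called higher. All 8 T cell markers (median log2 fold change 1.76, 6 at an unadjusted p under 0.05) and all 10 B cell markers (median 0.99) lay above 0, and 9 of 10 HSC markers below it (median -0.49). T cell markers summed to 39.2 to 152 CPM in YKO and 23.1 to 40.7 CPM in YWT, and B cell markers to 211 to 1660 CPM and 238 to 775 CPM. The part of these cells in the differences of the 10 genes was not tested.

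**Figure D3:**
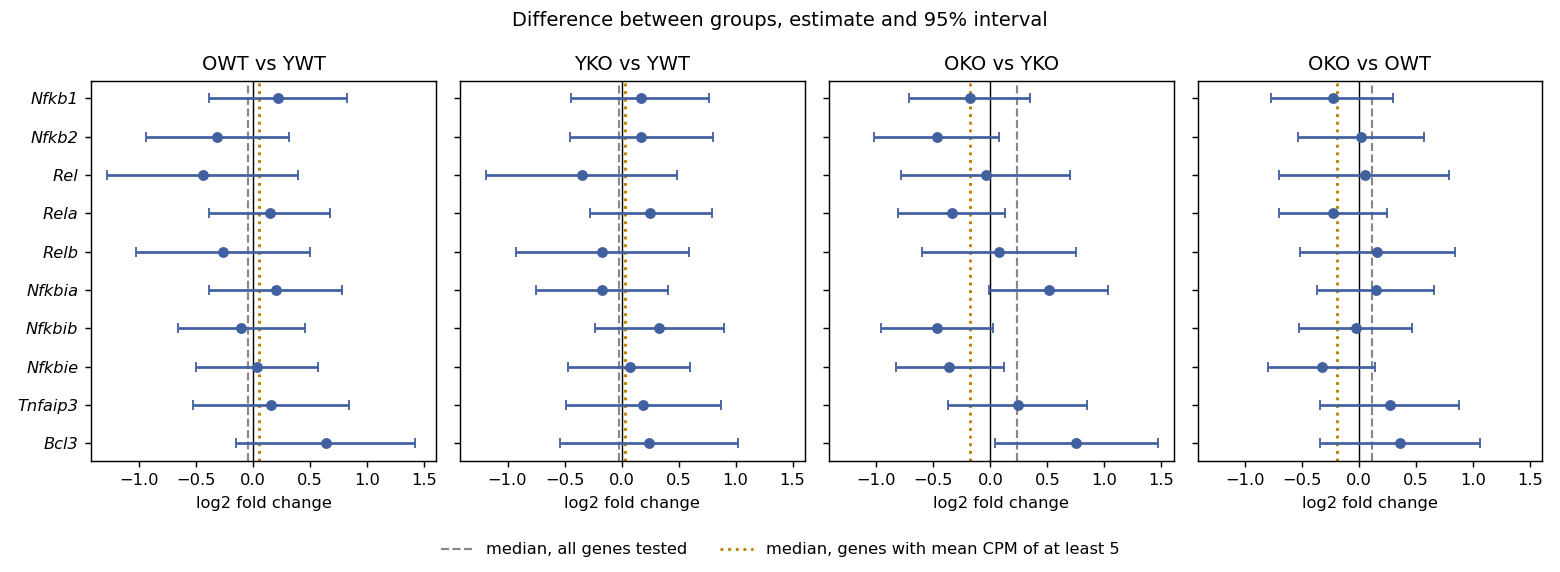
log2 fold change of the 10 genes (points, with 95% intervals) in the 4 comparisons, with the median of all genes tested (dashed) and of genes whose mean is 5 CPM or more (dotted). Only the interval of Bcl3 in OKO vs YKO, 0.04 to 1.47, leaves out 0.

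The third asked what age did in KO HSCs, and here the members spread furthest. In OKO vs YKO, Bcl3 was at a log2 fold change of 0.75 ± 0.34 (95% interval 0.04 to 1.47, adjusted p = 0.284 in edgeR's test) and Nfkbia at 0.51 ± 0.25 (-0.01 to 1.03, adjusted p = 0.324). Nfkbib (-0.47 ± 0.24, adjusted p = 0.34), Nfkb2 (-0.47 ± 0.26, adjusted p = 0.397), Nfkbie (-0.36 ± 0.23) and Rela (-0.34 ± 0.23) lay on the other side of 0. Tnfaip3 (0.24 ± 0.29), Nfkb1 (-0.18 ± 0.26), Relb (0.08 ± 0.33) and Rel (-0.04 ± 0.36) differed less. Of the 10 genes 0 passed, against 1.29% of all genes. An unadjusted p under 0.05 was reached by 1 of the 10, Bcl3, and by 15.8% of all genes. DESeq2 called 0 of the 10 and 10.3% of all genes. With the listed sex as a covariate, 0 of the 10 and 0.738% of all genes passed. The groups overlapped for all 10, and were apart for 2.6% of all genes.

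These values shift with the scale. The median log2 fold change of all genes tested was 0.235 in OKO vs YKO, but -0.178 among the 12324 genes with a mean of at least 5 CPM, and that of the 10 genes was -0.11. In OKO vs OWT the 3 medians were 0.115, -0.191 and 0.03. In the young comparison and in WT aging they lay between -0.046 and 0.17. When the genes under a mean of 5 CPM were left out before normalization, Nfkbia (0.68 ± 0.18, adjusted p = 0.0177 in edgeR's test) and Bcl3 (0.88 ± 0.29, adjusted p = 0.0475) passed in OKO vs YKO. They were then 2 of 10 where 12.1% of all genes passed. Scaled by library totals alone, Nfkbia passed (0.74 ± 0.18, adjusted p = 0.0365) where 1.93% of all genes did.

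The OKO libraries differed by title prefix, and so did the genes called. OKO1 to OKO3 also had the highest TMM factors, and the fits by prefix were not repeated with library totals alone. OKO1 to OKO3 alone against YKO gave a log2 fold change of -1.04 ± 0.20 for Nfkbib (adjusted p = 0.00442 in edgeR's test), -0.63 ± 0.22 for Rela (adjusted p = 0.0487) and -0.60 ± 0.24 for Nfkb1 (adjusted p = 0.0812). Nfkbib and Rela thus passed, 2 of 10 where 17.9% of all genes did. OKO4 to OKO7 alone gave -0.11 ± 0.16 for Nfkbib, -0.09 ± 0.20 for Rela and 0.12 ± 0.23 for Nfkb1, and 0 of the 10 passed against 0.815% of all genes. Bcl3 and Nfkbia lay above 0 in both subsets, at 1.12 ± 0.32 and 0.75 ± 0.20 in OKO4 to OKO7. In OKO1 to OKO3 they were at 0.18 ± 0.30 and 0.23 ± 0.26. Each of the genes named here thus had its lower estimate in OKO1 to OKO3. A fit of the 11 libraries without the prefix called Nfkb1, Rela and Nfkbib, where 16.1% of all genes passed. With the prefix as a covariate Rela and Nfkbib passed, where 19.1% of all genes did. With the replicate number as a block, in replicates 1 to 4 only, Nfkbib passed (6.97% of all genes), and it also did in those replicates without the block (13.3%). 

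**Figure D4:**
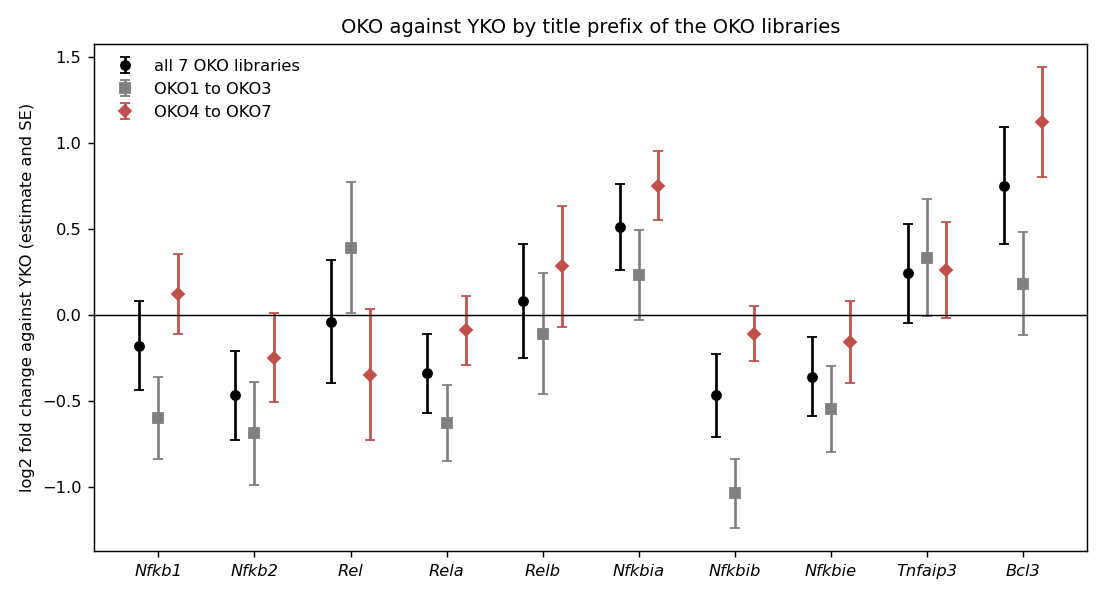
log2 fold change against YKO (y axis, estimate and SE) of each gene for all 7 OKO libraries, for OKO1 to OKO3 and for OKO4 to OKO7. Nfkbib is at -1.04 in OKO1 to OKO3 and at -0.11 in OKO4 to OKO7.

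Nfkb2 in OKO vs YKO also moved with libraries high in plasma and B cell markers. Without YKO2 it came to -0.17, and without YWT2, YKO1 and YKO2 together to 0.03, against -0.47 with all libraries. The latter fit keeps only YKO3 and YKO4 of YKO, both listed as male, so listed sex and group size change with it. Bcl3 was at 0.77 ± 0.47 and Nfkbia at 0.63 ± 0.33 without YWT2, YKO1 and YKO2. None of the 10 genes passed there, where 0.0129% of all genes passed in OWT vs YWT, 0% in YKO vs YWT, 0.0569% in OKO vs YKO and 0.0181% in OKO vs OWT. Bcl3 in OKO vs YKO was at 0.42 without OKO5 and at 0.87 without OKO1. B cell markers summed to 27.9 to 249 CPM in OKO and 211 to 1660 CPM in YKO, and 7 of the 10 were called lower in OKO. Erythroid markers summed to 34.1 to 2530 CPM in OKO and 1480 to 4190 CPM in YKO, and 4 of the 8 (Alas2, Hba-a1, Hbb-bt and Slc4a1) were called lower. Within groups Nfkbib had r 0.57 with the erythroid sum and 0.6 with the B cell sum over 19 libraries, as a description. The other 9 genes had r between -0.37 and 0.18 with the erythroid sum and between -0.22 and 0.53 with the B cell sum. Nfkbib also had r 0.65 with the megakaryocyte sum and 0.62 with the plasma cell sum. It had r 0.34 with the HSC, 0.25 with the T cell and 0.13 with the granulocyte and monocyte sum. Nfkb1 reached 0.92 with the megakaryocyte sum and Nfkb2 0.67 with the plasma cell sum. The part of these cells in the differences of the 10 genes was not tested.

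The fourth asked what the knockout did in old HSCs. In OKO vs OWT, Bcl3 was at a log2 fold change of 0.36 ± 0.34 and Nfkbie at -0.33 ± 0.23. Tnfaip3 (0.27 ± 0.29), Nfkb1 (-0.23 ± 0.26), Rela (-0.23 ± 0.23), Relb (0.16 ± 0.33) and Nfkbia (0.15 ± 0.25) followed, and Rel (0.05 ± 0.36), Nfkbib (-0.03 ± 0.24) and Nfkb2 (0.02 ± 0.27) were nearest to 0. Of the 10 genes 0 passed, with adjusted p between 0.613 and 0.985 in edgeR's test, against 0.0327% of all genes. At an unadjusted p under 0.05 the figures were 0 and 8.14%, and with DESeq2 0 and 0.217%. The groups overlapped for all 10 genes, and were apart for 0.819% of all genes. OKO1 to OKO3 alone against OWT gave -0.63 ± 0.19 for Nfkbib (adjusted p = 0.0437), the only 1 of the 10 to pass, where 12.4% of all genes did. OKO4 to OKO7, which share the prefix with OWT, gave 0.33 ± 0.16, and 0 of the 10 passed against 0.0801% of all genes. Granulocyte and monocyte markers separated the groups, at 93.6 to 431 CPM in OKO and 532 to 889 CPM in OWT (9 of 10 with a fold change below 0, median -1.76, 7 at an unadjusted p under 0.05). All 10 HSC markers (median -0.39, 1 at an unadjusted p under 0.05) and all 6 megakaryocyte markers (median -0.73, 2 at that level) also lay below 0. The other marker lists held genes on both sides of 0. None of these markers passed the test, and the part of such cells in the differences of the 10 genes was not tested.

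Whether the change with age differed between genotypes was tested as an interaction, called on the adjusted p alone. The estimates ran from -0.49 ± 0.34 for Rela to 0.40 ± 0.54 for Rel, with Nfkb1 at -0.40 ± 0.39, Nfkbie at -0.39 ± 0.35, Nfkbib at -0.37 ± 0.36, Relb at 0.33 ± 0.49 and Nfkbia at 0.31 ± 0.37. Nfkb2 (-0.16 ± 0.40), Bcl3 (0.12 ± 0.50) and Tnfaip3 (0.08 ± 0.44) were nearer to 0. Adjusted p lay between 0.811 and 0.959 in edgeR's test. Of the 10 genes 0 passed, as did 0% of all genes. At an unadjusted p under 0.05 the figures were 0 and 4.62%, and DESeq2 called 0 of the 10 and 0.0208% of all genes. The intervals are wide, from -1.20 to 0.23 for Rela on the log2 scale.

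The wider pathway was read from 4 lists. Among 16 receptors and ligands, 18 adaptors and kinases, 10 other brakes and 20 target genes, 0 genes passed in the interaction or in any comparison other than OKO vs YKO. In OKO vs YKO, 6 of the 64 passed, 2 higher and 4 lower, beside 1.29% of all genes. Tlr4, the receptor for bacterial lipopolysaccharide, rose by a log2 fold change of 0.99 (adjusted p = 0.0409 in edgeR's test), and Ier3, an early survival gene, by 1.46 (adjusted p = 0.0449). Lta, a ligand made by lymphocytes (-5.02, adjusted p = 0.00439), Cd40, a receptor of B cells (-3.07, adjusted p = 0.0162), Cd83, an activation marker of B and dendritic cells (-3.61, adjusted p = 0.0125), and Traf5, an adaptor of tumour necrosis factor receptors (-1.42, adjusted p = 0.00651), were lower. Lta was near the floor, at a mean of 0.0701 CPM in OKO and 2.39 CPM in YKO (0.438 to 5.87). Cd40 was at means of 1.22 and 10.2 CPM. Lta, Cd40 and Cd83 averaged a log2 CPM of 0.51, 1.82 and 2.79, under the 3 asked of the list ends given next. In OWT vs YWT these genes were also lower, at -4.18 ± 1.09, -2.29 ± 0.75 and -2.34 ± 0.84, without passing. Traf5 was at -0.58 ± 0.30 there, Ier3 at 1.18 ± 0.39 and Tlr4 at -0.11 ± 0.26. B cell genes such as Pax5 and Ebf1 and the T cell genes Cd3e, Cd4 and Cd2 were called lower in the same comparison, and the part of lymphoid cells in the change of Lta, Cd40, Cd83 and Traf5 was not tested. Fewer cells of a type and less RNA per cell cannot be told apart in such libraries.

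Where nothing passed, the ends of each list among genes averaging a log2 CPM of 3 or more were as follows. In OWT vs YWT, Il1r1, the interleukin-1 receptor (1.33 ± 0.44), and Ier3 (1.18 ± 0.39) were the highest, and Tnfrsf13c, the receptor for the B cell factor BAFF (-0.68 ± 0.58), and Vcam1 (-0.66 ± 0.59), an adhesion molecule, the lowest. The ends were Tab2 (0.41 ± 0.21) and Traf5 (-0.58 ± 0.30) for the adaptors and kinases, and Trim30a (0.49 ± 0.21) and Nfkbid (-0.40 ± 0.35) for the brakes. In YKO vs YWT they were Tnfrsf13c (0.45 ± 0.58) and Tlr4 (-0.83 ± 0.26) for the receptors and ligands, and Traf5 (0.57 ± 0.30) and Birc2 (-0.37 ± 0.20) for the adaptors and kinases. Zc3h12a (0.56 ± 0.33) and Cyld (-0.44 ± 0.21) bounded the brakes, and Tnfaip2 (0.91 ± 0.36) and Ccl4 (-0.87 ± 0.34) the target genes. In OKO vs YKO the brakes ran from Otulin (-0.65 ± 0.24) to Nfkbiz (0.67 ± 0.21). In OKO vs OWT the receptors and ligands ran from Tnfrsf13c (-0.57 ± 0.51) to Tlr4 (0.27 ± 0.23), and the adaptors and kinases from Tab2 (-0.40 ± 0.18) to Traf3 (0.03 ± 0.20). The brakes ran from Otulin (-0.49 ± 0.24) to Nfkbid (-0.02 ± 0.31), and the target genes from Gadd45b (-1.37 ± 0.31, adjusted p = 0.267 in edgeR's test) to Vcam1 (0.39 ± 0.53). In the interaction the 4 lists together ran from Gadd45b (-1.23 ± 0.47) to Tlr4 (1.10 ± 0.35).

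Within groups the 10 genes varied together from library to library. On log2(CPM + 1) values from which the group mean was subtracted, the 45 pairs had a median Pearson r of 0.58 over 19 libraries, and 30 of them (66.7%) were over 0.5. All pairs of the 11304 genes whose log2 CPM averaged 3 or more had a median of 0.37, and 36.9% were over 0.5. The libraries of all pairs share depth and scaling, so r is a description. Without OKO1 the median of the 45 pairs was 0.52, and that of all pairs was not recomputed. Nfkb1 and Rela, which encode the classical dimer, had the highest r at 0.88 (Spearman's rho 0.74), or 0.74 without the 2 libraries farthest from the median of Nfkb1. Nfkb2 and Nfkbia had r 0.87 (rho 0.84, or r 0.79 without the 2 farthest libraries), and Nfkb2 and Relb, of the alternative pathway, had r 0.86 (rho 0.84, or r 0.84). Rel stood aside, with r between -0.34 against Nfkbib and 0.50 against Tnfaip3. Without OKO1 each r of Rel was higher, running from -0.29 to 0.59 against the same genes, with 0.52 against Relb.

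**Figure D5:**
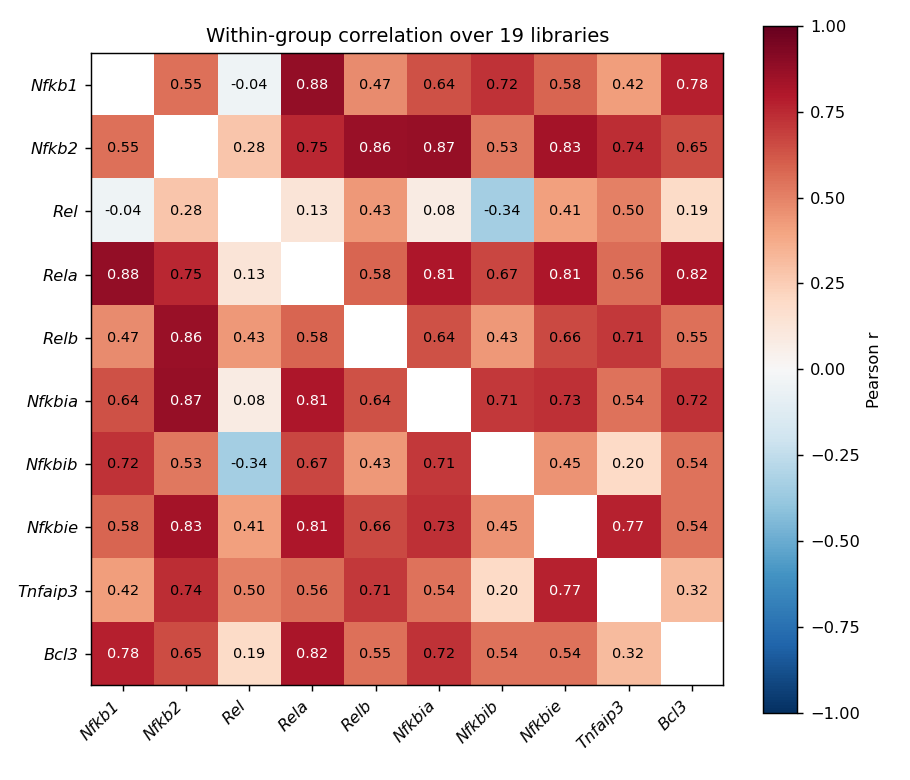
Pearson r of log2(CPM + 1) minus the group mean for each pair of the 10 genes (both axes) over 19 libraries, from -1 (blue) to 1 (red). The row of Rel is the palest, and Nfkb1 with Rela is the highest pair at 0.88.

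The gene most like each member was looked for among 11303 others, again as a description. Rela was most like Dnajc5 (r 0.98, rho 0.93) and Nfkbib most like Ppp4c (r 0.98, rho 0.90). Nfkb1 was most like Gm17122 (r 0.97, rho 0.96), Nfkb2 most like Swap70 (r 0.94, rho 0.94) and Bcl3 most like Zbtb2 (r 0.94, rho 0.88). Nfkbie paired with Cyfip2 (r 0.92, rho 0.94), Relb with Il2rg (r 0.91, rho 0.86) and Nfkbia with Csnk1g3 (r 0.91, rho 0.90). Tnfaip3 with Plekha8 (r 0.87, rho 0.84) and Rel with Kif13b (r 0.83, rho 0.81) were the loosest. Without the 2 farthest libraries these r lay between 0.81 and 0.96.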

How the data were processed

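RNA-seq of sorted HSCs was analysed in 19 libraries, and the bisulfite libraries were not used here. The authors trimmed reads with Trim Galore 0.4.3 and cutadapt, mapped them by STAR (mm10, GENCODE M22), and deposited the featureCounts count of reads per gene symbol. Strand and mate settings are not given in the sources used here. R 4.3.3 with edgeR 4.0.16 was used: filterByExpr kept 33690 symbols, TMM normalized them, and 1 quasi-likelihood fit took in all 19 libraries, each group having 1 mean. Calls had a Benjamini-Hochberg adjusted p under 0.05 over all genes and a fold change over 1.5. The study names DESeq2, which was run as an alternative (version 1.42.0). Values are mean log2 fold changes ± SE from the fit. To logarithms of CPM for correlations, 1 was added. Gene positions and exon lengths are those of GENCODE M21 on mm10. Named genes are the 10 members, Gadd45b, every called gene of 4 pathway lists, otherwise each list's highest and lowest fold change among genes averaging a log2 CPM of 3 or more, and the gene most like each member. The members and lists were chosen with earlier results of these data known. The edgeR step was tested on simulated counts with known fold changes and the same dispersion for every gene. Those counts held no batch and no scaling difference between libraries, so they do not bear on either. Library totals of 22197555 to 77970627 counts make counting error small beside the spread between libraries. Replicate libraries differed by more than sampling noise in each group.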

Additional observations from a re-analysis of the deposited data

Results flagged for a closer look

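Among 40 sets of values, 10 genes in 4 groups, 3 held a library far from the rest of its group, where about 1 in 20 would by chance. Bcl3 was at 144 CPM in OKO5, against 76.0 CPM in the next highest of 7 OKO libraries. Rel was at 20.7 CPM in YKO2, against 8.47 CPM in the next highest of 4. Rel was also at 6.22 CPM in OWT4, against 11.4 CPM in the next lowest of 4. YKO2 had the second highest plasma cell marker sum of all libraries, and its part in the value of Rel was not tested.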

How the results depend on the processing

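None of the 10 genes passed in OWT vs YWT, YKO vs YWT or the interaction under any setting run for them. The same held with any of 19 libraries left out. In OKO vs YKO the count was 0 in the reported fit, where 1.29% of all genes passed. It was 1 scaled by library totals alone (1.93% of all genes) and 2 with a mean CPM of at least 5 (12.1%). It was also 2 with the title prefix as a covariate (19.1%) or with OKO1 to OKO3 only (17.9%). The libraries without IB15 alone gave 3 (16.1%). Replicates 1 to 4 gave 1 with the replicate block (6.97%) or without it (13.3%). In OKO vs OWT the count went from 0 (0.0327%) to 1 with OKO1 to OKO3 only (12.4%). The settings of replicates 1 to 4 without the block, of each prefix alone and without YWT2, YKO1 and YKO2 were added after the data were seen. Replicate numbers do not pair the samples: same-numbered libraries had r of -0.47 to 0.30 over 24 pairs, with 5 over 0.1. Over 17 other settings and 19 libraries left out, of 1640 recomputed log2 fold changes, 105 changed sign, 100 of them of values under 0.3 in size, 13 passed that had not in the reported fit, and none that had passed was lost since none had. Over all genes, 434 were called in OKO vs YKO, and from 22 without YWT2, YKO1 and YKO2 to 6420 with the title prefix as a covariate. The cause was not tested. Depth limits Rel most, at 118 to 1329 counts.

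The log2 fold changes that changed sign follow. With the title prefix as a covariate these were Nfkb1 -0.55, Rel 0.27, Rela -0.43, Nfkbia -0.36, Nfkbie -0.38, Bcl3 -0.34 in OWT vs YWT, Rel 0.32, Relb -0.17 in OKO vs YKO, Nfkb1 0.05, Rel -0.30, Nfkbib 0.31 in OKO vs OWT, Nfkb2 0.02 in the interaction. With upper-quartile normalization these were Nfkbie -0.02 in OWT vs YWT, Rel 0.13 in OKO vs YKO, Nfkbib 0.13 in OKO vs OWT. With a mean CPM of at least 5 these were Nfkbie -0.02 in OWT vs YWT, Rel 0.21 in OKO vs YKO, Nfkbib 0.15 in OKO vs OWT, Nfkb2 0.06 in the interaction. Without YWT2, YKO1 and YKO2 these were Nfkb2 -0.06, Tnfaip3 -0.19 in YKO vs YWT, Nfkb2 0.03, Rel 0.37 in OKO vs YKO, Nfkb2 0.07 in the interaction. Scaled by library totals alone these were Nfkb1 0.04, Rel 0.35 in OKO vs YKO, Rela 0.01, Nfkbib 0.14 in OKO vs OWT, Nfkb2 0.09 in the interaction. With OKO4 to OKO7 as the OKO group these were Nfkb1 0.12 in OKO vs YKO, Nfkb1 0.08, Rel -0.27, Rela 0.02, Nfkbib 0.33 in OKO vs OWT, Nfkb2 0.06 in the interaction. With DESeq2 these were Rel 0.03 in OKO vs YKO, Nfkbib 0.06 in OKO vs OWT. With no filter on low counts these were Rel 0.07 in OKO vs YKO. With OKO1 to OKO3 as the OKO group these were Rel 0.39, Relb -0.11 in OKO vs YKO, Nfkb2 -0.23, Relb -0.05, Nfkbia -0.17, Bcl3 -0.24 in OKO vs OWT, Bcl3 -0.44 in the interaction. With the replicate block these were Rel 0.44 in OKO vs YKO, Nfkb2 -0.13, Relb 0, Nfkbia -0.11, Bcl3 -0.05 in OKO vs OWT, Bcl3 -0.26 in the interaction. In replicates 1 to 4 without the block these were Rel 0.35, Relb -0.02 in OKO vs YKO, Nfkb2 -0.12, Nfkbia -0.06 in OKO vs OWT, Bcl3 -0.18 in the interaction. In the libraries without IB15 alone these were Rel 0.40, Relb -0.10 in OKO vs YKO. In the IB15 libraries alone these were Nfkb1 0.06, Rel -0.29, Rela 0, Nfkbib 0.31 in OKO vs OWT. With the compared groups only these were Nfkbib 0.02 in OKO vs OWT. With 1 library left out in turn, the ranges that crossed 0 were in OWT vs YWT Nfkb1 (-0.05 to 0.34), Nfkbie (-0.11 to 0.23), and in YKO vs YWT Nfkb2 (-0.10 to 0.40), Relb (-0.58 to 0), Nfkbia (-0.34 to 0), Nfkbie (-0.08 to 0.23), and in OKO vs YKO Rel (-0.22 to 0.49), Relb (-0.10 to 0.51), and in OKO vs OWT Nfkb1 (-0.41 to 0.06), Nfkb2 (-0.13 to 0.14), Rel (-0.13 to 0.19), Relb (-0.01 to 0.28), Nfkbib (-0.17 to 0.09), and in the interaction Nfkb2 (-0.38 to 0.14), Tnfaip3 (-0.10 to 0.28), Bcl3 (-0.22 to 0.38).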
